A study of Mus musculus with 23 samples.

Results

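The opioid peptide and receptor genes were followed in the mouse nucleus accumbens, a ventral striatal region of reward and motivation. They are the 3 peptide precursors Penk, Pdyn and Pnoc and the 4 receptors Oprm1, Oprd1, Oprk1 and Oprl1, and make up 7 of the 22180 genes named by a probe set with a single gene symbol. Each of the 7 had exactly 1 such probe set, so no choice among probe sets was needed.

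The series asks how Nr1d1, which encodes the circadian nuclear receptor REV-ERBα, acts in this region on the reward of social contact and on behaviour related to anxiety, and its 23 whole-transcript arrays ask which transcripts differ after knockdown. All groups were C57BL/6 mice of about 15 weeks whose accumbens had been injected about 5 weeks earlier with adeno-associated virus (AAV). The virus carried a short hairpin RNA against Nr1d1 in 6 females and 6 males (knockdown) and a scrambled hairpin in 5 females and 6 males (control). The tissue was micropunched, and every sample is described as a biological replicate. The sources used here do not say which cell types the virus reached, in what share of cells, or which promoter drove the hairpin. The labels also mention a postpartum day of collection for samples of both sexes, and the reproductive state of the females was therefore not used.

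Opioid peptides are cut from larger precursor proteins and act on receptors that signal through inhibitory G proteins and lower the excitability or transmitter release of the cell that carries them. In the striatum, enkephalins from Penk are made mainly by medium spiny neurons of the indirect pathway, which carry the dopamine receptor Drd2, and dynorphins from Pdyn mainly by those of the direct pathway, which carry Drd1. Enkephalins act chiefly on the delta receptor (Oprd1) and the mu receptor (Oprm1), dynorphins on the kappa receptor (Oprk1), and nociceptin, cut from the Pnoc product, on the nociceptin receptor (Oprl1).

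No fall of the targeted transcript was detectable in the arrays labelled knockdown. Nr1d1 averaged 9.99 ± 0.16 (SD, n = 6) in females labelled knockdown and 10.04 ± 0.07 (SD, n = 5) in control females, a log2 difference of −0.05 (limma SE 0.09). In males it averaged 9.58 ± 0.13 (SD, n = 6) and 9.59 ± 0.20 (SD, n = 6), a difference of −0.01 (SE 0.09). Every direction given here rests on the labels. Markers of the labelled tissue were present on all arrays, with Drd1 at 9.82 to 10.72 and Drd2 at 10.80 to 11.76 on the deposited log2 scale. Array medians were 6.11 to 6.17 in females and 5.84 to 5.88 in males, so the sexes appear to have been normalized apart, and levels are compared only within a sex. Slc17a7, a glutamate transporter of cortical neurons, ranged from 4.64 to 11.13 over the 23 arrays, and the members that vary with it are named with the cortical markers below. No pair of arrays was a duplicate, with 3.47% of genes equal to 2 decimals in the most alike pair.

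None of the 7 opioid genes passed the test for a change with the hairpin in either sex, and their differences were small: between −0.13 and 0.09 log2 in females and between −0.10 and 0.11 in males. In females 2 of the 7 lay above the control mean and 5 below. In males 5 lay above and 2 below. The median difference of the 7 was −0.03 in females and 0.035 in males, against 0.0003 and 0.003 over all named genes. By limma with Benjamini-Hochberg adjustment over 41345 probe sets, 0 of 7 passed 0.05 in females, in males, in the average of both and in the male minus female effect, where the share of all probe sets that passed was 0% in each. At an unadjusted p under 0.05 the count was also 0 of 7 in each, against 5.86% of all probe sets in females, 4.71% in males, 4.71% in the average and 5.70% in the male minus female effect. Adjusted p of the members lay between 0.883 and 0.997 in females and between 0.996 and 0.998 in males. Knockdown and control arrays overlapped for all 7 genes in both sexes, where 0.588% of all probe sets did not overlap in females and 0.109% in males. As the punches are bulk tissue, fewer cells of a type and less RNA per cell cannot be told apart in any of these values.

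**Figure D1:**
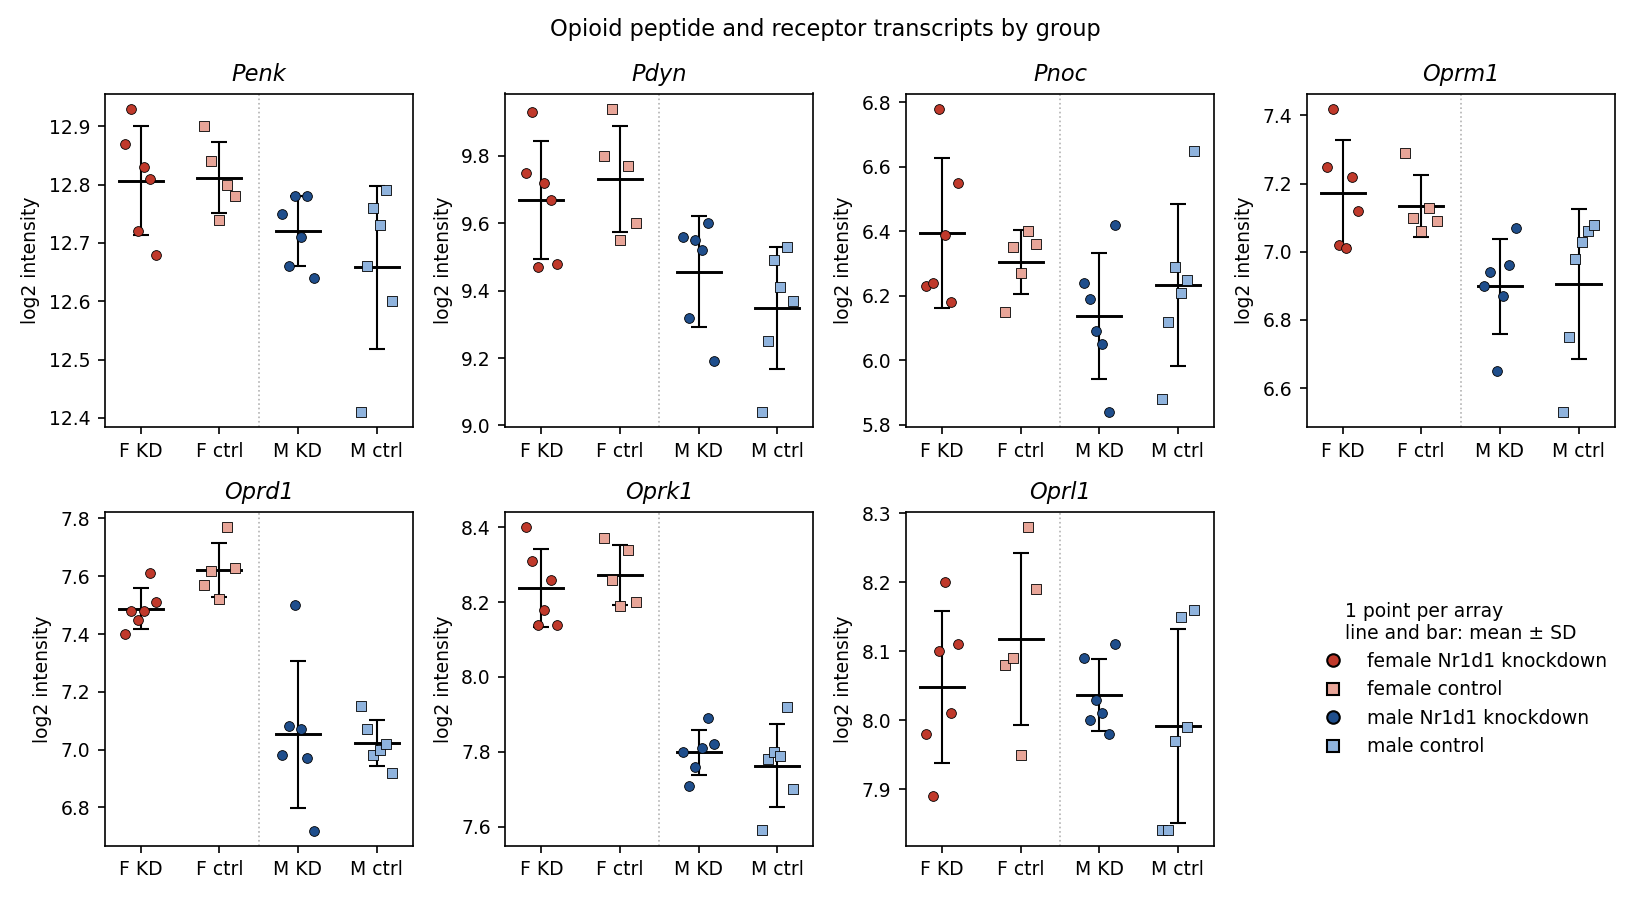
Log2 intensity of the 7 opioid genes in each of the 23 arrays, with 1 panel a gene, 1 point an array and lines for mean ± SD; knockdown (circles) stands left of control (squares) in females (F, red) and males (M, blue). In every panel the knockdown and control points of a sex overlap; the vertical axes differ between panels and do not start at 0.

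Penk, the enkephalin precursor (probe set 17423030, on chromosome 4 in the RefSeq gene table, which also gives the other chromosomes here), was the steadiest precursor. In the 6 females labelled knockdown it stood between 12.68 and 12.93, with a median of 12.82, and in the 5 control females at 12.90, 12.84, 12.74, 12.80 and 12.78. The ranges overlapped almost fully, and the difference was −0.01 (SE 0.06, 95% interval −0.13 to 0.12). Among males it stood between 12.64 and 12.78, with a median of 12.73, in the knockdown arrays and between 12.41 and 12.79, with a median of 12.70, in controls. The lowest male value, 12.41, was that of male control 1. The male difference was 0.06 (SE 0.06, interval −0.06 to 0.18), and 0.01 without male control 1.

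Pdyn, the dynorphin precursor (probe set 17391590, chromosome 2), varied more between arrays of a group than Penk, with a within-group SD of 0.17 against 0.096 log2. It ranged from 9.47 to 9.93, with a median of 9.70, in females labelled knockdown, and was 9.80, 9.94, 9.55, 9.77 and 9.60 in control females. Both groups spanned nearly the same range, with a difference of −0.06 (SE 0.10, interval −0.27 to 0.14). In males the knockdown arrays ranged from 9.19 to 9.60, with a median of 9.54, and the controls from 9.04 to 9.53, with a median of 9.39. Male control 1 was again the lowest. The difference was 0.11 (SE 0.09, interval −0.09 to 0.30), and 0.05 without that array.

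Pnoc, the nociceptin precursor (probe set 17307749, chromosome 14), was the member that spread most within groups, with an SD of 0.21 log2. Its mean lay above that of 45.2% of named genes in females and 46.8% in males. The shares were 91.9% and 91.7% for Pdyn and 99.9% in each sex for Penk. Whether spread goes with level was not tested. The females labelled knockdown ran from 6.18 to 6.78, with a median of 6.32, and the control females stood at 6.15, 6.35, 6.27, 6.40 and 6.36. Only knockdown females 3 (6.78) and 6 (6.55) lay above all controls, and the difference was 0.09 (SE 0.12, interval −0.16 to 0.34). In males Pnoc ran from 5.84 to 6.42, with a median of 6.14, after knockdown and from 5.88 to 6.65, with a median of 6.23, in controls. The control range enclosed all but the lowest knockdown array. The difference of −0.10 (SE 0.11, interval −0.33 to 0.14) was −0.01 without male control 6, the array at 6.65. Its intervals, from −10.4% to 26.3% in females and from −20.5% to 10.3% in males, were the widest of the 7 genes.

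Oprm1, the mu receptor and main target of morphine (probe set 17231495, chromosome 10), stood between 7.01 and 7.42, with a median of 7.17, in females labelled knockdown. The control females had 7.29, 7.10, 7.06, 7.13 and 7.09. The control values lay inside the knockdown range, and the difference was 0.04 (SE 0.09, interval −0.16 to 0.24). In males Oprm1 stood between 6.65 and 7.07, with a median of 6.92, in knockdown arrays and between 6.53 and 7.08, with a median of 7.01, in controls. Male controls 1 (6.53) and 2 (6.75) and male knockdown 3 (6.65) were low, while the other 9 male arrays lay between 6.87 and 7.08. The male difference was −0.01 (SE 0.09, interval −0.19 to 0.18), and −0.08 without male control 1.

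Oprd1, the delta receptor (probe set 17430762, chromosome 4), had the difference furthest from 0 of the female contrast. The 6 females labelled knockdown stood at 7.40 to 7.61, with a median of 7.48, and the controls at 7.57, 7.62, 7.52, 7.77 and 7.63. All 6 lay below the control mean of 7.62, but the ranges overlapped, since knockdown female 5 (7.61) lay above controls 1 and 3. The difference was −0.13 (SE 0.09, interval −0.32 to 0.05), with an unadjusted limma p of 0.142 and an adjusted p of 0.883. The two-sided exact permutation test within females, which does not pool the spread with the males, gave p = 0.0238 unadjusted. That rule took in 1 of the 7 members in females and 0 in males, against 6.69% and 3.65% of all probe sets. Males stood at 6.72 to 7.50, with a median of 7.03, in knockdown arrays and at 6.92 to 7.15, with a median of 7.01, in controls. Male knockdown arrays 3 (7.50) and 6 (6.72) marked both ends of the range, and the difference was 0.03 (SE 0.08, interval −0.14 to 0.20). It was −0.06 without male knockdown 3 and −0.01 with the mean of the cortical markers as a covariate. The male minus female effect was 0.16 (SE 0.12) and did not pass (adjusted p = 0.925).

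Oprk1, the kappa receptor (probe set 17210904, chromosome 1), stood between 8.14 and 8.40, with a median of 8.22, in females labelled knockdown and at 8.37, 8.26, 8.19, 8.34 and 8.20 in control females. In males it stood between 7.71 and 7.89, with a median of 7.81, and between 7.59 and 7.92, with a median of 7.79, in controls. The groups overlapped in both sexes, with differences of −0.03 (SE 0.06, interval −0.16 to 0.09) in females and 0.04 (SE 0.06, interval −0.08 to 0.15) in males. Oprl1, the nociceptin receptor (probe set 17381128, chromosome 2), stood between 7.89 and 8.20, with a median of 8.06, in females labelled knockdown and at 8.08, 8.09, 7.95, 8.28 and 8.19 in controls. In males it stood between 7.98 and 8.11, with a median of 8.02, after knockdown and between 7.84 and 8.16, with a median of 7.98, in controls. Its differences were −0.07 (SE 0.07, interval −0.21 to 0.07) in females and 0.05 (SE 0.07, interval −0.09 to 0.18) in males, again with overlapping groups. Without male control 1 the male differences were 0.000333 for Oprk1 and 0.0147 for Oprl1.

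No member passed the test for a difference of the hairpin's effect between the sexes. The male minus female effect ran from −0.18 (SE 0.17) for Pnoc to 0.17 (SE 0.14) for Pdyn, with adjusted p between 0.925 and 0.989. Differences this near 0 have no settled sign: that of Penk in females was 0.0117 under quantile normalization, and those of Penk and Oprk1 in males were −0.015 and −0.0242 without male controls 1 and 6. In males labelled knockdown, all 12 measured common marker genes of medium spiny neurons lay above the control mean, by a median of 0.09, and 7 of 8 cortical projection neuron markers did, by a median of 0.34, with none of either list past the threshold. In females 7 of the 12 and 5 of the 8 lay above, with medians of 0.02 and 0.05. The mean of the 12 genes was 10.55 in male control 1 and 10.54 in male control 6. It was 10.78 to 10.88 in the other male controls and 10.68 to 10.96 in males labelled knockdown. The 12 genes come from the same punches and are not separate observations. The share of all genes above the control mean was not computed. With the mean of the 12 genes as a covariate, the male differences were −0.00708 for Penk and −0.0229 for Oprk1.

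**Figure D2:**
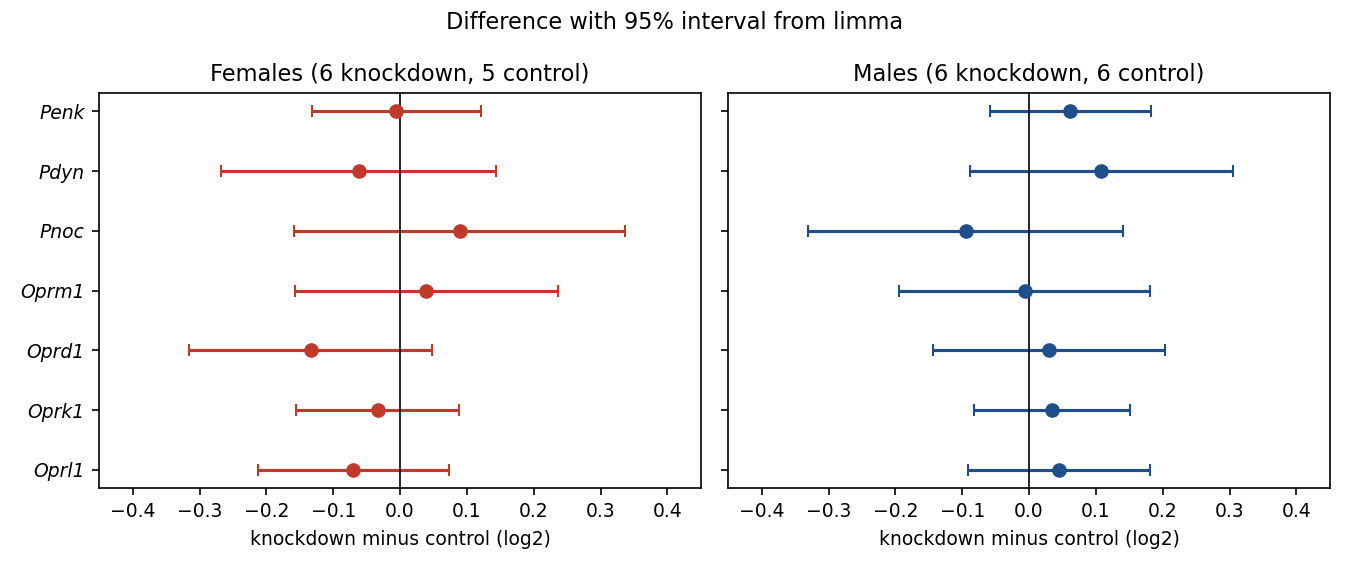
Knockdown minus control on the log2 scale for each opioid gene, in females (left, red) and males (right, blue); points are limma estimates and bars their 95% intervals, with no adjustment for multiple testing. All the bars cross 0, and the estimate furthest from 0 is that of Oprd1 in females at −0.13.

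The genes that cut, carry and break down opioid peptides, and those that act downstream of the receptors, were counted the same way, and none passed the adjusted threshold in any of the contrasts. The genes named from each list are the 2 with the smallest unadjusted limma p in the average of both sexes. Counts of their arrays on one side of the control mean follow in part from that choice. The share of all genes with such counts was not computed. Of 11 measured prohormone processing genes, 3 lay above and 8 below the control mean in females and 6 above and 5 below in males, with medians of −0.02 and 0.01. Scg5, whose product 7B2 is a chaperone of the prohormone convertase Pcsk2, differed by −0.09 in the average of both sexes (SE 0.03, unadjusted p = 0.0122, adjusted p = 0.980) and lay below the control mean in 12 of 12 knockdown arrays. Ctsl, the protease cathepsin L, which can cleave the Penk product, differed by −0.12 (SE 0.05) and lay below in 11 of 12. Among 8 peptide-degrading enzymes, 0 lay above and 8 below in females and 6 above and 2 below in males, with medians of −0.03 and 0.04. Ece2, a metalloprotease, had an average difference of −0.07 (SE 0.05) and Dpp4, a dipeptidyl peptidase, of −0.06 (SE 0.05).

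Of 25 receptor signalling genes, 11 lay above and 14 below in females and 18 above and 7 below in males, with medians of −0.02 and 0.03. Rgs7, which speeds the shut-off of inhibitory G proteins, differed by −0.07 (SE 0.04) in the average, and Gnai3, an inhibitory G protein subunit, by −0.07 (SE 0.04). The 17 transcription factors known to act on opioid genes or on striatal neurons lay 10 above and 7 below in females and 11 above and 6 below in males, with medians of 0.01 and 0.02. Kcnip3, which encodes DREAM, a calcium-sensing repressor of Pdyn, differed by 0.13 (SE 0.07) in the average and lay above the control mean in 10 of 12 knockdown arrays, and the glucocorticoid receptor Nr3c1 differed by −0.07 (SE 0.05). Of 5 other opioid-related genes, 4 lay above in females and 5 in males, with medians of 0.03 and 0.04, among them Opcml, an opioid-binding adhesion protein, at 0.08 (SE 0.08), and Ackr3, a receptor that scavenges opioid peptides, at 0.04 (SE 0.05).

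Within groups, some pairs of opioid genes varied together. Each value was taken as its deviation from the mean of its group, so differences between group means do not enter. Differences between groups in spread or in covariation still do. Each of the 21 pairs was tested over the 23 arrays by 100000 permutations within groups, two-sided, with Benjamini-Hochberg adjustment over the 21. Of the 21 pairs, 6 passed, 5 with a positive and 1 with a negative Pearson r. Of all 21, r was above 0 in 13 and below 0 in 8. The share of pairs of other genes that would pass was not computed. For scale, the 95th percentile of a member's r with all other named genes lay between 0.42 (Oprd1) and 0.54 (Oprm1).

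The striatal precursors moved together most closely. Penk and Pdyn had r = 0.88 (rho = 0.89), with permutation p = 1e-05 for each, the smallest the draws can give, and an adjusted p of 0.00021 for r. It was 0.89 in females and 0.89 in males, 0.85 without the 2 arrays farthest in Penk, and 0.89 without male controls 1 and 6. Over all 22179 other named genes, none had a higher r with Pdyn than Penk, and 6 had a higher r with Penk than Pdyn. The log2 difference of the pair on the same array was 3.14 ± 0.09 (SD, n = 6) in females labelled knockdown, 3.08 ± 0.12 (SD, n = 5) in control females, 3.26 ± 0.11 (SD, n = 6) in males labelled knockdown and 3.31 ± 0.07 (SD, n = 6) in control males. These differences of probe set intensities do not measure the ratio of the transcripts.

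The kappa receptor followed both precursors. Oprk1 had r = 0.80 with Penk (rho = 0.80, permutation p = 7e-05 and 6e-05, adjusted p = 0.000735 for r), which was 0.79 in females and 0.83 in males. With Pdyn, the precursor of its own ligand, r was 0.68 (rho = 0.67, permutation p = 0.00145 and 0.00168, adjusted p = 0.00777 for r), 0.69 in females and 0.67 in males. Without the 2 arrays farthest in the precursor, the values were 0.72 with Penk and 0.69 with Pdyn. Of all other named genes, 5 had a higher r with Oprk1 than Penk and 108 a higher r than Pdyn.

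The nociceptin precursor and its receptor also varied together. Pnoc and Oprl1 had r = 0.64 (rho = 0.75, permutation p = 0.00148 and 0.00022, adjusted p = 0.00777 for r), which was 0.53 in females and 0.75 in males. It was 0.60 without the 2 arrays farthest in Pnoc. With the mean of 12 common medium spiny neuron genes removed it was 0.59 and did not pass (adjusted p = 0.0606). In all, 93 of the other named genes had a higher r with Pnoc. Male control 6 was the highest male array for both, at 6.65 and 8.16, and male control 1 was among the lowest for both, at 5.88 and 7.84. Pnoc and Penk had r = −0.18 (rho = −0.35, permutation p = 0.491 and 0.142, adjusted p = 0.689 for r), and −0.57 without male controls 1 and 6 (adjusted p = 0.0410).

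**Figure D3:**
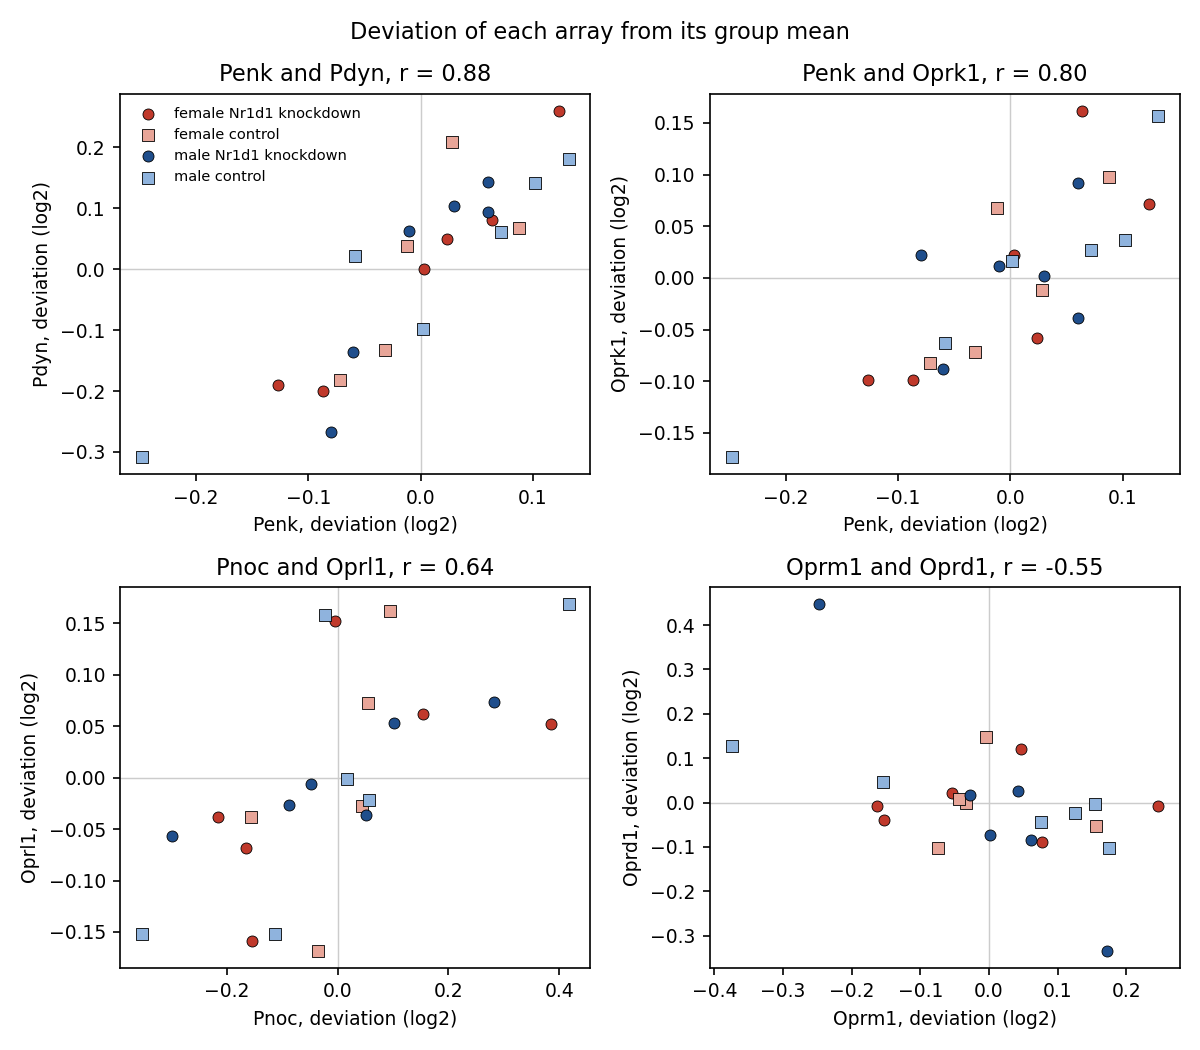
Deviation of each array from its group mean, in log2, for 4 pairs of opioid genes; each point is 1 of 23 arrays, circles are knockdown and squares control, red female and blue male. The points of Penk and Pdyn (r = 0.88) and of Penk and Oprk1 (r = 0.80) run along a rising line, those of Pnoc and Oprl1 (r = 0.64) scatter more widely, and those of Oprm1 and Oprd1 (r = −0.55) rest on male arrays at both ends.

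The mu receptor moved with the kappa receptor and against the delta receptor. Oprm1 and Oprk1 had r = 0.65 (rho = 0.67, permutation p = 0.00356 and 0.00207, adjusted p = 0.0125 for r), 0.77 in females and 0.59 in males, and 0.55 without the 2 arrays farthest in Oprm1. Of all other named genes, 455 had a higher r with Oprm1 than Oprk1 had, and 156 a higher r with Oprk1 than Oprm1 had. Oprm1 and Oprd1 had r = −0.55 (rho = −0.54, permutation p = 0.00347 and 0.00988, adjusted p = 0.0125 for r). That relation did not hold in both sexes: r was 0.02 in females and −0.73 in males, and it was −0.34 without male control 1 and male knockdown 3. Penk and Oprm1 had r = 0.56 but did not pass (rho = 0.49, permutation p = 0.0282 and 0.0394, adjusted p = 0.0847 for r), with 0.75 in females and 0.47 in males. Pnoc and Oprm1 had r = 0.19 (rho = 0.08, permutation p = 0.470 and 0.751, adjusted p = 0.689 for r), with −0.70 in females and 0.66 in males, a difference that was not tested.

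**Figure D4:**
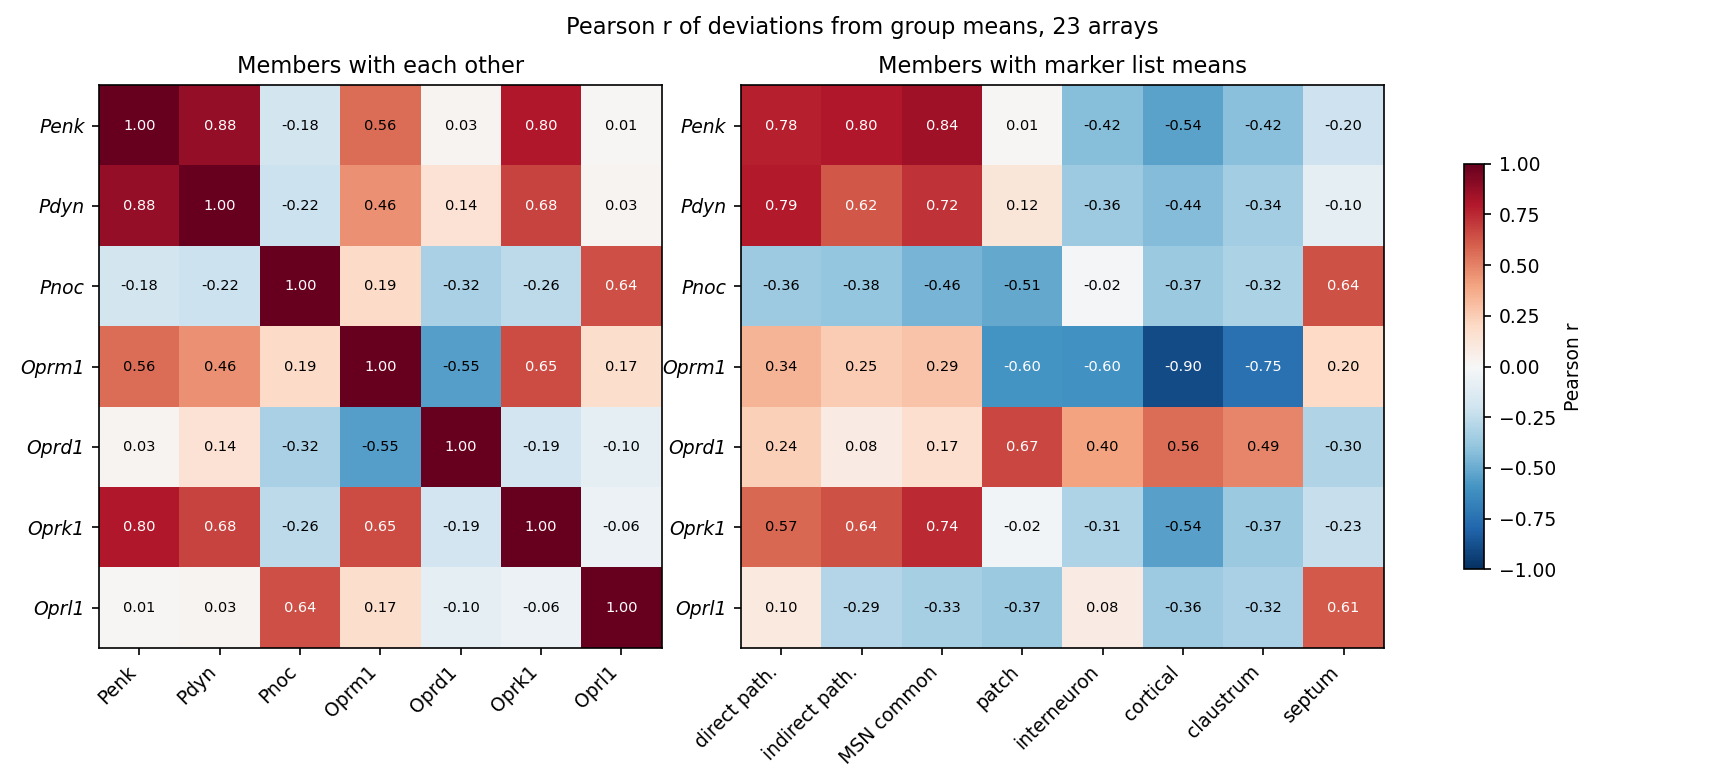
Pearson r of deviations from group means over 23 arrays, for the opioid genes with each other (left) and with the means of 8 marker lists (right; MSN, medium spiny neuron); red is positive and blue negative. Penk, Pdyn and Oprk1 form a red block that extends to the 3 medium spiny neuron lists, and Oprm1 has the deepest blue cell, −0.90 with the cortical list.

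The same deviations were set against the means of 8 lists of cell type and neighbouring tissue markers (56 pairs, adjusted together), and 17 of them passed. The share of all named genes that would pass with the same lists was not computed, so whether the count is particular to opioid genes is not known. Penk, Pdyn and Oprk1 each passed with the 8 direct pathway, the 9 indirect pathway and the 12 common medium spiny neuron genes, all with positive r. Penk had r = 0.84 with the common list (rho = 0.82, permutation p = 1e-05 and 3e-05, adjusted p = 0.00028 for r), 0.93 in females and 0.81 in males. Both precursors moved with the dopamine receptor of either pathway. Penk had r = 0.81 with Drd2 and 0.77 with Drd1, and Pdyn 0.75 with Drd1 and 0.61 with Drd2, where all 4 passed with adjusted p between 0.00084 and 0.0119 over 28 pairs of a member and a marker gene. The difference between these r values was not tested. With the mean of the common list removed, Penk and Pdyn still had r = 0.74 (adjusted p = 0.00714), whereas Penk and Oprk1 had 0.49 (adjusted p = 0.0860), and Pdyn and Oprk1 0.31 (adjusted p = 0.247).

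Oprm1 varied inversely with cortical and claustrum markers. Its r with the mean of 8 cortical projection neuron genes was −0.90 (rho = −0.86, permutation p = 1e-05 and 2e-05, adjusted p = 0.00028 for r), −0.87 in females, −0.92 in males, and −0.85 without the 2 arrays farthest in Oprm1. The cortical list mean lay between 7.15 and 8.43 in females labelled knockdown, between 7.32 and 8.22 in control females, between 6.05 and 7.84 in males labelled knockdown and between 5.95 and 8.35 in control males. Slc17a7, its first gene, averaged 10.29 ± 0.76 (SD, n = 6) and 10.39 ± 0.60 (SD, n = 5) in knockdown and control females and 8.63 ± 1.68 (SD, n = 6) and 7.46 ± 2.44 (SD, n = 6) in knockdown and control males. Among the 28 pairs of a member and a marker gene, Slc17a7 passed the permutation test with Oprm1 (r = −0.80, adjusted p = 0.00056). It also passed with Oprd1 (r = 0.57, adjusted p = 0.0293), where r was 0.04 in females and 0.64 in males. Within groups, arrays with more cortical signal tended to have less Oprm1. Of the male arrays, control 1, with a list mean of 8.35, had the lowest Oprm1, and control 6, at 5.95, the highest. Oprm1 also had negative r with the claustrum (−0.75), patch (−0.60) and interneuron (−0.60) lists, although the mu receptor is itself known as a patch marker of the striatum. In that order, r was −0.60, −0.30 and −0.62 in females and −0.81, −0.71 and −0.66 in males. With the septum and basal forebrain list the r of Oprm1 was 0.20 (adjusted p = 0.572), −0.70 in females and 0.51 in males. Penk, Pdyn and Oprk1 also had negative r with the cortical list, and none passed over the 56 pairs. It was −0.54 for Penk (adjusted p = 0.107), with −0.93 in females and −0.44 in males. For Pdyn it was −0.44 (adjusted p = 0.135), with −0.80 in females and −0.33 in males, and for Oprk1 −0.54 (adjusted p = 0.0507), with −0.73 in females and −0.52 in males. With the cortical list mean removed, Oprm1 and Oprk1 had r = 0.44 (adjusted p = 0.141) and Oprm1 and Oprd1 −0.15 (adjusted p = 0.554), and neither passed. Both pairs passed with the medium spiny neuron list mean removed instead, at 0.68 and −0.64 (adjusted p = 0.0179 for each). Still past the threshold with the cortical mean removed were Penk and Pdyn (r = 0.85), Penk and Oprk1 (0.72), Pdyn and Oprk1 (0.58) and Pnoc and Oprl1 (0.59). Pnoc and Oprk1 passed with the cortical mean removed, with r = −0.59 (adjusted p = 0.0391), against −0.26 before (adjusted p = 0.580). The −0.26 was −0.67 in females and 0.06 in males. When the medium spiny neuron list mean was removed instead, r of Pnoc and Oprk1 was 0.15 (adjusted p = 0.613).

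Oprd1 had the opposite sign to Oprm1, with r = 0.56 with the cortical list (rho = 0.61, permutation p = 0.00351 and 0.00374, adjusted p = 0.0148 for r), but this was 0.04 in females and 0.65 in males. It also passed with the patch list (r = 0.67, adjusted p = 0.0148), with 0.38 in females, 0.73 in males and 0.49 without male knockdown arrays 3 and 6. With the cortical list mean as a covariate, its female difference was −0.14 (adjusted p = 0.815), close to the −0.13 without it. Pnoc and Oprl1 passed with the septum and basal forebrain list instead, at r = 0.64 (permutation p = 0.00881, adjusted p = 0.0308) and 0.61 (permutation p = 0.00225, adjusted p = 0.0116). For Pnoc this was 0.18 in females and 0.83 in males. Pnoc and the cortical list had r = 0.74 in females and −0.76 in males, and −0.37 over all arrays (adjusted p = 0.254). How far the make-up of a punch bears on the pairs of opioid genes, beyond these values, was not tested.

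**Figure D5:**
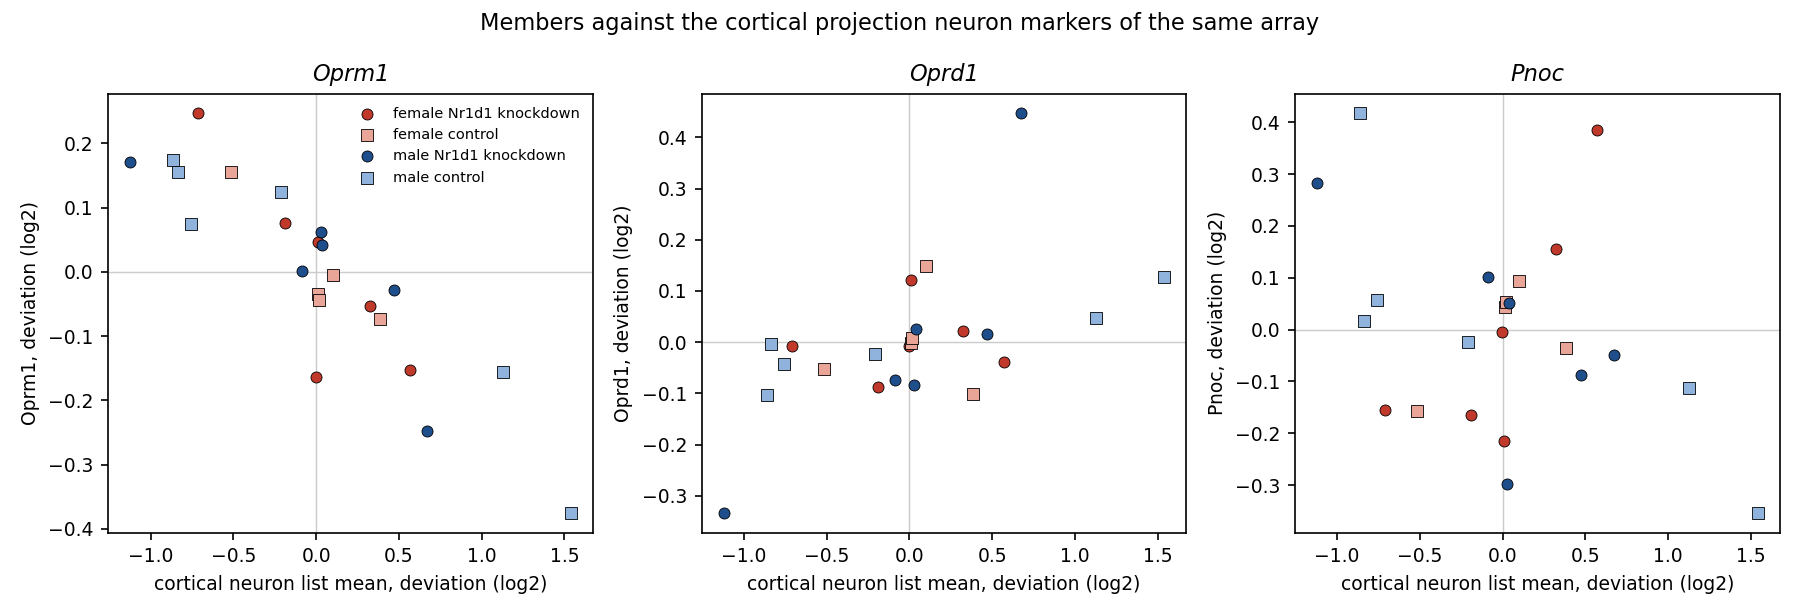
Deviations from group means of Oprm1, Oprd1 and Pnoc (log2, vertical) against the deviation of the mean of 8 cortical projection neuron genes (log2, horizontal) in the 23 arrays; circles are knockdown, squares control, red female and blue male. Oprm1 falls along the whole axis (r = −0.90), Oprd1 rises mainly through male arrays at both ends (r = 0.56), and Pnoc rises in females (0.74) and falls in males (−0.76).

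For each opioid gene, the 3 genes with the highest r of deviations were sought among the named genes above the median level. Penk was followed most closely by Ptpn5 (r = 0.92), Pde7b (0.91) and Prkch (0.90), and Pdyn by Penk itself (0.88), Fras1 (0.87) and Kcnj2 (0.86). Oprk1 went with Tmtc1, Ptpn5 and Necab2, each at 0.85, so that Ptpn5, which encodes a striatum-enriched phosphatase, stood near the top for both Penk and Oprk1. Oprm1 went with Med12l, Dock10 and Grik2, each at 0.92. The nociceptin genes shared Adcyap1r1, a receptor of the peptide PACAP, which had r = 0.79 with Pnoc and 0.78 with Oprl1. Pnoc's closest were Plxdc2 and Magi1, both at 0.80, and those of Oprl1 were Rars (0.86) and Suclg2 (0.82). Oprd1 had looser company, with Uck2 at 0.80, Nol4l at 0.77 and Tdp1 at 0.75. These values come from the same 23 arrays and describe likeness alone.

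The 250 bases before the annotated start of transcription were read from RefSeq (GRCm38.p6) for Pdyn, the precursor that moved with Penk, and for Oprd1, the receptor with the furthest female difference. The Pdyn window shown, 1 of 2 for this gene, lies at chr2:129699939-129700188 and the Oprd1 window at chr4:132144487-132144736, both on the minus strand. Capitals mark the letters CACGTG, the core to which the clock activators BMAL1 and CLOCK bind.

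Pdyn: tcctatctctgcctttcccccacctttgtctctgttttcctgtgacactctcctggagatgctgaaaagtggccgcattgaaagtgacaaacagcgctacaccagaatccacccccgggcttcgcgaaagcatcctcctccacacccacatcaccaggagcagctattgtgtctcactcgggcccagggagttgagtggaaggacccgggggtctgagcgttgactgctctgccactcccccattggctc

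Oprd1: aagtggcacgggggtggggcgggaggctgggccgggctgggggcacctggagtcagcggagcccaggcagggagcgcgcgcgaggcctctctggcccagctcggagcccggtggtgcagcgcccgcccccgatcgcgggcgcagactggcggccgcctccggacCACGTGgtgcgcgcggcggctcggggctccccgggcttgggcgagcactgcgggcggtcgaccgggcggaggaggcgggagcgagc

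The windows of Pdyn, Oprm1, Oprd1 and Oprl1, 9 in all, were searched on both strands for AGGTCA (the core that REV-ERB binds), the longer REV-ERB element (AANT directly before that core), TGACGTCA (the cAMP response element) and CACGTG. The promoter sequences used held no window for Penk, Pnoc and Oprk1, so these 3 could not be searched. Windows 2 and 3 of Oprm1 overlap for most of their length. The only match in the 9 windows was CACGTG in Oprd1, 86 bases before the start, in a window of 80.0% G and C. Of 32851 windows of this length over all genes, 6.02% held CACGTG, 14.0% AGGTCA, 1.55% TGACGTCA and 0.177% the longer element. The match describes the letters and not a bound site.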

How the data were processed

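Per the labels' protocols, total RNA from micropunches was labelled from 150 ng with a whole-transcript kit. The authors deposited log2 intensities, 1 per probe set and array. They used Transcriptome Analysis Console, per the submitters' processing notes. The sources used here give neither its version nor the normalization or genome build. Array quartiles differ between the sexes, so separate runs are likely. The number of arrays limits the precision.

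Probe sets were named through the array's annotation table (23521 with 1 symbol, 1814 with several, 16010 with none). Of the probe sets with 1 symbol, 23328 matched the GRCm38.p6 gene table, which changed 0 of their symbols. All 23 arrays entered 1 limma 3.58.1 model (R 4.3.3) with a mean per group, 19 residual and 3.24 prior degrees of freedom. Tests were two-sided, with Benjamini-Hochberg adjustment over 41345 probe sets at 0.05. Single values were also compared by exact permutation tests within a sex, and pairs by permutation within groups (numpy 2.4.6). The limma fit and the permutation of pairs were tested on simulated data, and the exact permutation test was not. The noise simulated for limma was independent between probe sets, so it did not include variation shared by many genes. The deviations of same-numbered arrays had r of −0.08 to 0.18 in females and −0.18 to 0.32 in males. The same-numbered control was the closest for 2 of 5 female pairs and 1 of 6 male pairs. These values do not settle whether numbers pair the arrays, and the main model does not pair them. The members and lists were chosen with earlier results of these data known. Named genes are the members, Nr1d1, 5 marker genes of which Adora2a had no probe set of its own, the 2 genes of each pathway list with the smallest average p, and the 3 genes most like each member. Alternatives covered the normalization, filters, array weights, a replicate block, covariates and left-out arrays.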

Additional observations from a re-analysis of the deposited data

Results flagged for a closer look

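Over 48 groups of arrays (12 genes in 4 groups), 2 held an array far from the rest of its group, where chance alone flags about 1 in 20 groups. Control female 4 had Nr1d1 at 9.93, the lowest of its group, with the next at 10.05, a gap of 0.75 of the group's range. Male knockdown array 6 had Slc17a7 at 5.37, with the next at 8.72, a gap of 0.728 of the range. No member had such an array.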

How the results depend on the processing

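No member passed the adjusted limma threshold under any alternative in females, males, the average or the male minus female effect. The unadjusted exact permutation test took in 1 member in females, Oprd1 at −0.134 (p = 0.0238). Leaving out each array in turn left 0 members in each contrast, 0 to 1 probe sets in females (1 without female knockdown 1 and without male knockdown 4), 0 to 1 in males (1 without male control 1 and without male control 5) and 6 to 8 pairs (8 without male knockdown 3 and without male knockdown 6). Without male controls 1 and 6 together, 1 probe set passed in males, and Oprm1 and Oprd1 had r = −0.525 (adjusted p = 0.0618). With the medium spiny neuron list mean removed, 3 pairs passed in place of 6, and Pnoc and Oprl1 had r = 0.585 (adjusted p = 0.0606).

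Values near 0 changed sign. Penk in females was 0.0117 under quantile normalization, 0.00366 with array weights and 0.02 with the replicate block, which called 0 members. Oprm1 in males was 0.00167 with arrays centred on the median, 2.244e-06 with array weights and 0.0682 with the cortical covariate. That covariate also gave −0.0126 for Oprd1 in males, 0.0243 for the Oprm1 male minus female effect and 0.0186 for Nr1d1 in males. With the medium spiny neuron covariate, Penk and Oprk1 in males were −0.00708 and −0.0229. Without male controls 1 and 6 they were −0.015 and −0.0242, and the Penk male minus female effect was −0.00967. Penk and Pnoc had r = 0.44 with the medium spiny neuron mean removed. Pnoc and Oprm1 had r = −0.34 with the cortical mean removed and −0.208 without both controls. When each array was left out in turn, the range that crossed 0 was −0.03 to 0.02 for Penk and −0.01 to 0.0783 for Oprm1 in females. In males it was −0.0817 to 0.043 for Oprm1, −0.0593 to 0.0967 for Oprd1 and −0.0483 to 0.0407 for Nr1d1. For the Oprm1 male minus female effect it was −0.121 to 0.00367, and for r of Pnoc and Oprm1 −0.0373 to 0.327. No differently averaged value could be had for a member, since each has 1 probe set. The cause of these changes was not tested.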
